A study of Mus musculus with 6 samples.

Results

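Immediate early genes are genes that a cell transcribes within minutes of a stimulus, without first making new protein. Most code for transcription factors that then switch on a slower wave of genes. The 10 members described here are Fos, Fosb, Jun, Junb, Egr1, Egr2, Egr3, Atf3, Ier2 and Nr4a1, taken as a named list out of 21506 genes tested, and all 10 were measured. Each had exactly 1 row of the array table assigned to its symbol alone, so no choice between rows was needed.

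Growth factors, stretch, adrenergic signals and cell stress reach these genes through kinases that act on factors already waiting in the nucleus, among them SRF with its Elk partners, which bind the CArG box, and CREB, which binds the cAMP response element. Fos and Jun proteins pair through leucine zippers to form the AP-1 factor, the EGR proteins bind GC-rich sites through zinc fingers, and NR4A1 is an orphan nuclear receptor. In the heart they respond to pressure load, catecholamines and ischaemia, and also to handling and tissue removal, and their transcripts decay quickly.

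RNA came from left ventricle of 6 male mice of 10 to 14 weeks, 3 sickle and 3 control, on Affymetrix Mouse Gene 2.0 ST arrays with 1 array per mouse, per the labels. Sickle mice (B6;129-Hbatm1(HBA)Tow with Hbbtm2(HBG1,HBB*)Tow on both Hbb alleles) made human sickle haemoglobin, and control mice (the same Hba allele with Hbbtm3(HBG1,HBB)Tow) made non-sickling human haemoglobin. Both groups therefore carried human globin genes in place of the mouse genes, and neither was a wild-type mouse. Electrocardiograms and arrhythmia induction under isoflurane are described in the labels for sickle and control mice, but the sources used here do not say whether the mice on the arrays went through them. The comparison asked how gene expression in the ventricle differed between sickle and control mice.

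Heart muscle markers were bright in both groups, with Myh6, the alpha myosin of adult mouse ventricle, at 13.23 in control and 13.21 in sickle, and Tnnt2, cardiac troponin T, at 13.53 and 13.56 (mean log2 values, n = 3).  The array of sickle replicate 3 stood apart from the others, with 375 genes over 2-fold away from the mean of its group mates (1.74% of all genes), where the other arrays had 21 to 118 such genes. Control replicate 3 held atrial transcripts, such as Sln (sarcolipin) at 8.08 and Myl7 (atrial myosin light chain) at 7.75, which were at 3.10 to 3.36 and 4.31 to 4.78 in the other arrays. Results on the members are given with and without sickle replicate 3. In whole tissue, fewer cells of a type and less RNA per cell cannot be told apart.

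RefSeq promoter windows (build GRCm38.p6, 250 bases before to 50 after an annotated start) were at hand for 7 of the 10 members: Fos, Fosb, Jun, Junb, Egr2, Atf3 and Nr4a1. No window was given for Egr1, Egr3 and Ier2. Of these windows 5 are shown, for Fos and Fosb, close relatives whose values parted in sickle replicate 1, for Egr2, the member farthest above its control mean in sickle replicate 3, and for Nr4a1 and Atf3, which were low in replicate 1 of both groups. Capitals mark the core of the cAMP response element (TGACG, or CGTCA read from the other strand), the CArG box and the TATA box (TATAAA). All are written 5′ to 3′ in the direction of transcription.
Fos, chr12:85473640-85473939, plus strand: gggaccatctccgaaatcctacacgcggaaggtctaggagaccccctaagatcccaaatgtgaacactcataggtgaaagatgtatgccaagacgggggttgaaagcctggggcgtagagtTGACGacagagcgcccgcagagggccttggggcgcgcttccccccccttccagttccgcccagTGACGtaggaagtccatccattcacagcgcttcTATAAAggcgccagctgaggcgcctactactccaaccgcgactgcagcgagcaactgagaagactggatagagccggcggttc
Fosb, chr7:19309996-19310295, minus strand: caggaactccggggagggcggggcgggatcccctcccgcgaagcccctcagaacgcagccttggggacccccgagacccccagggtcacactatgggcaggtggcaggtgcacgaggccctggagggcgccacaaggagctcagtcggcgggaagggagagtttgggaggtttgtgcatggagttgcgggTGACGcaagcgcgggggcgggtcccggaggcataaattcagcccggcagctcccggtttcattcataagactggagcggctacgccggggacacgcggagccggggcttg
Egr2, chr10:67537619-67537918, plus strand: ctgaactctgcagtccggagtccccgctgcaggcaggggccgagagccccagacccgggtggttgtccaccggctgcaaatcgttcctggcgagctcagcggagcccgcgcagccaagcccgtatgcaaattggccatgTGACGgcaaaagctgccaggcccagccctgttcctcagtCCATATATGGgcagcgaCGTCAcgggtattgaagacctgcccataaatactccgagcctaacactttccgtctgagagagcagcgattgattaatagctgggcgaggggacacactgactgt
Nr4a1, chr15:101266596-101266895, plus strand: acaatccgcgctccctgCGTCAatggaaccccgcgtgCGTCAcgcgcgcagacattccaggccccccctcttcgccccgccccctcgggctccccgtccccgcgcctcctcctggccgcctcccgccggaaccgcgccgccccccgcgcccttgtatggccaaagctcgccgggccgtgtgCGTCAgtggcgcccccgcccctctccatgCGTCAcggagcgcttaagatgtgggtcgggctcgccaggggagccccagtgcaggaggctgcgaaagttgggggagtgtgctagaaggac
Atf3, chr1:191183284-191183583, minus strand: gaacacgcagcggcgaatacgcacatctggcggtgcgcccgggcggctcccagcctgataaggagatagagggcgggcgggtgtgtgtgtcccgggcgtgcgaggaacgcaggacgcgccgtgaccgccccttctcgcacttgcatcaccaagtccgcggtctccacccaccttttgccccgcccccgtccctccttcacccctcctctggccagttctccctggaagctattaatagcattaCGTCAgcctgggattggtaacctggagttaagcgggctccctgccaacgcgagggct

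The CRE core was found in 6 of the 7 members with a window, all except Jun, against 23% of the 27025 genes in the promoter table. Nr4a1 held 4 such matches, of which the nearest to the start began at position -40, Fos held 2, at -129 and -66, and Atf3 held 1, at -7. The full palindrome TGACGTCA was in 0 of 7 members (2.03% of all genes), as were the AP-1 site TGANTCA (8.97%) and the EGR site GCGTGGGCG (0.707%). Among the 7 members with a window, Egr2 was the 1 with a CArG box, at position -72 of the window shown (1.81% of all genes). Egr2 had several windows, not all with a CArG box, and a match in any of them counted. A CArG box outside these windows, or in a member without a window, could not be seen. Fos and Junb held a TATAAA (15.7%). Both strands were searched, the core also counts inside a full element, and a match describes these letters only.

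None of the 10 members passed the test between sickle and control. By limma with Benjamini-Hochberg adjustment over all 21506 genes, 0 of 10 had an adjusted p under 0.05, where 39 genes (0.181%) did. At an unadjusted p under 0.05 there were 3, Ier2, Fosb and Egr1, all higher in sickle, beside 8.69% of all genes. That count was 1 without control replicate 3 or sickle replicate 2, where the share over all genes was not counted. It was 5 without sickle replicate 1, an array picked on these genes (9.67% of all genes). Those 3 were also the members in which each sickle array lay above every control array, a pattern seen in 7.61% of all genes. Under a second quantile normalisation or with each array centred on its median, 2 members kept that pattern, Fosb and Ier2, and Egr1 lost it. The mean was higher in sickle for 8 of 10 members, against 48.4% of all genes, and the median difference over the members was 0.33 on the log2 scale, against -0.01 over all genes. The adjusted p of the members lay between 0.492 and 0.862.

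**Figure D1:**
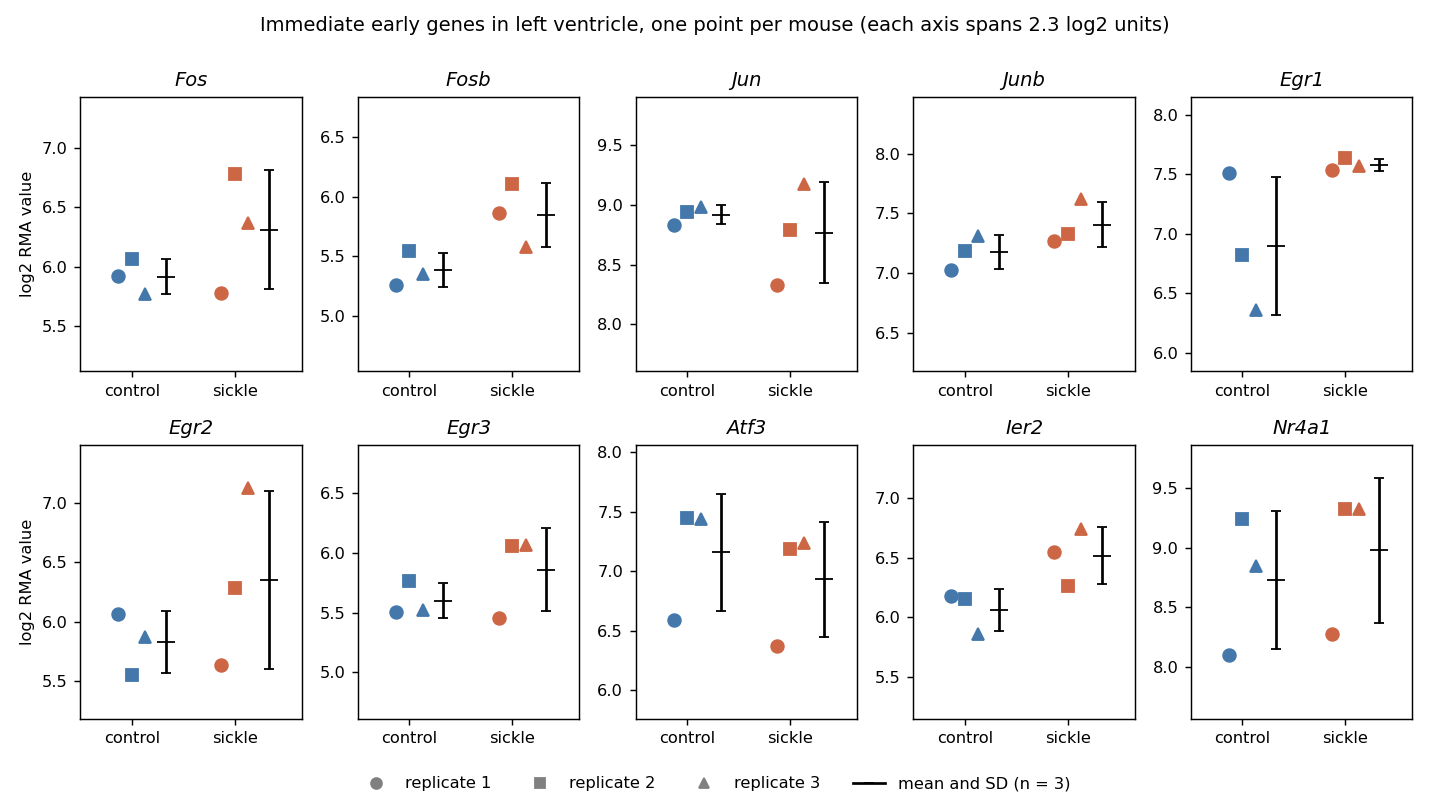
Log2 RMA value (vertical axis, the same span in every panel) of the 10 immediate early genes in 3 control and 3 sickle mice; symbols mark the replicate number and the black mark is the mean with SD. Egr1, Fosb and Ier2 are the genes whose groups do not overlap on this scale (Egr1 overlaps under median centring or a second quantile normalisation), and replicate 1 is the lowest point of both groups for Nr4a1 and Atf3.

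Among the AP-1 genes, Fos, the founding partner of Jun, had 5.92, 6.06 and 5.77 in control replicates 1 to 3 and 5.78, 6.78 and 6.37 in the sickle replicates. Sickle replicates 2 and 3 lay above all controls, and sickle replicate 1 lay within the control range, so the groups overlapped. The difference was 0.39 ± 0.23 (SE; 95% interval -0.15 to 0.94; limma adjusted p = 0.654), 1.31-fold, and it was 0.16 without sickle replicate 2. Fosb, a Fos relative whose shortened splice form is long-lived, had 5.26, 5.54 and 5.35 in control and 5.86, 6.11 and 5.57 in sickle. All sickle values were above the controls, sickle replicate 3 by the least. Its difference was 0.46 ± 0.15 (95% interval 0.11 to 0.81; adjusted p = 0.492), and it was the 1 member below the median level of all genes, 5.694.

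Jun, which pairs with Fos or with itself, had 8.83, 8.94 and 8.98 in control and 8.33, 8.79 and 9.18 in sickle. The controls lay close together, and the sickle values ran from below all of them to above all of them. The difference was -0.15 ± 0.20 (95% interval -0.61 to 0.31; adjusted p = 0.849). Junb, a Jun relative that can restrain Jun, had 7.03, 7.19 and 7.31 in control and 7.27, 7.33 and 7.62 in sickle. Its sickle replicates 2 and 3 were above the controls and replicate 1 was just inside their range, with a difference of 0.23 ± 0.13 (95% interval -0.07 to 0.53; adjusted p = 0.642).

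Among the EGR genes, Egr1, a zinc finger factor induced by stretch and growth factors, had 7.51, 6.82 and 6.36 in control and 7.53, 7.63 and 7.57 in sickle. The 3 sickle values were nearly equal, while the controls were spread over more than 1 log2 unit and the highest of them nearly reached the sickle values. The means were 6.90 ± 0.58 in control and 7.58 ± 0.05 in sickle (SD, n = 3), and the difference of 0.68 ± 0.26 (95% interval 0.08 to 1.28; adjusted p = 0.545), 1.60-fold, was the largest among the members. The difference depended on control replicates 1 and 3 more than on control replicate 2. It was 0.41 without control replicate 3, 0.99 without control replicate 1 and 0.64 without control replicate 2. Control replicate 3, the lowest array for Egr1, is the one that held atrial transcripts.

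Egr2, a relative of Egr1 known for its role in myelinating cells, had 6.07, 5.55 and 5.88 in control and 5.64, 6.29 and 7.13 in sickle. Sickle replicate 3 was far above the rest and sickle replicate 1 lay within the control range. The difference of 0.52 ± 0.34 (95% interval -0.27 to 1.31; adjusted p = 0.682) became 0.13 without sickle replicate 3. Egr3, which acts beside Egr2 in lymphocytes and nerve, had 5.51, 5.77 and 5.52 in control and 5.46, 6.06 and 6.06 in sickle. Its sickle replicates 2 and 3 were equal and above the controls while replicate 1 was below them, with a difference of 0.26 ± 0.18 (95% interval -0.15 to 0.68; adjusted p = 0.690).

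Of the remaining members, Ier2, a small nuclear protein of the early response, had 6.18, 6.15 and 5.86 in control and 6.55, 6.26 and 6.74 in sickle. All sickle values were above the controls, replicate 2 by the least, and the difference was 0.45 ± 0.15 (95% interval 0.11 to 0.80; adjusted p = 0.492). It was 0.35 without control replicate 3, the lowest array for Ier2 and the one with atrial transcripts. Atf3, a stress-induced factor that often represses its targets, had 6.59, 7.45 and 7.44 in control and 6.38, 7.18 and 7.24 in sickle. Nr4a1 had 8.10, 9.24 and 8.84 in control and 8.28, 9.32 and 9.33 in sickle. In both genes replicate 1 was the lowest array of each group and the groups overlapped widely. Their differences were -0.23 ± 0.30 for Atf3 (95% interval -0.92 to 0.47; adjusted p = 0.846) and 0.25 ± 0.36 for Nr4a1 (95% interval -0.59 to 1.09; adjusted p = 0.862).

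The order of the differences ran from Egr1 down through Egr2, Fosb, Ier2, Fos, Egr3, Nr4a1 and Junb to Jun and Atf3, and every interval overlapped those of its neighbours in this order. The interval took in 0 for 7 of 10 members. With 3 mice per group the intervals reached from -0.92 (Atf3) to 1.31 (Egr2).

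Without sickle replicate 3, 0 of 10 members passed the adjusted threshold (0.0976% of all genes did), and the median difference over the members fell to 0.15, against 0.00 over all genes. The mean was still higher in sickle for 8 of 10 (50.2% of all genes). The unadjusted p was under 0.05 for Fosb and Ier2 (9.20% of all genes). Fosb had its largest difference here, 0.60 (95% interval 0.29 to 0.90; limma adjusted p = 0.261). Egr1 differed by 0.69 (95% interval -0.03 to 1.40; adjusted p = 0.563) and Ier2 by 0.34 (95% interval 0.01 to 0.68; adjusted p = 0.536), so the 3 genes without overlap kept their direction. The groups did not overlap in 4 members (26.9% of all genes): those 3, with sickle above control (13.5% of all genes), and Jun, which had -0.35 with both remaining sickle values below the controls.

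Sickle replicate 1 was the array that most parted from its group in these genes, and it was singled out after its values were seen. It was the lowest sickle array in 8 of 10 members, all except Fosb and Ier2, where 29.7% of all genes had it lowest. This was not particular to the members. It was lowest in 22 of 43 other early response genes, 12 of 20 feedback inhibitors and 9 of 16 upstream kinases and activators. Among cell type markers it was lowest in 10 of 10 for macrophages, 6 of 10 for fibroblasts and 1 of 10 for cardiomyocytes. In 6 members (Fos, Jun, Egr2, Egr3, Atf3 and Nr4a1) sickle replicate 1 lay over 1.5-fold below the mean of its group mates, against 2.18% of all genes. Relative to the control mean, the median over the members was -0.14 in sickle replicate 1, and 0.46 in both replicate 2 and replicate 3. In the control arrays it lay between -0.09 and 0.12.

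Sickle replicate 1 was singled out as low in these same genes. Leaving it out pushes up, by construction, the sickle means of the 8 members in which it was the lowest sickle array. In the others the difference fell slightly, from 0.461 to 0.455 for Fosb and from 0.453 to 0.437 for Ier2. The shares over all genes carry no such choice, so they are not a like comparison. Without sickle replicate 1, the remaining sickle arrays were above every control in 8 of 10 members, the exceptions being Jun and Atf3, against 13.3% of all genes. The median difference was 0.46 and all 10 means were higher in sickle (47.7% of all genes), yet 0 of 10 passed the adjusted threshold (0.167% of all genes did). An unadjusted p under 0.05 was reached by 5 members (9.67% of all genes). Egr2 differed by 0.87 (95% interval 0.24 to 1.51), Fos by 0.66 (0.27 to 1.04) and Egr3 by 0.47 (0.17 to 0.76), with limma adjusted p of 0.434, 0.390 and 0.416.

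**Figure D2:**
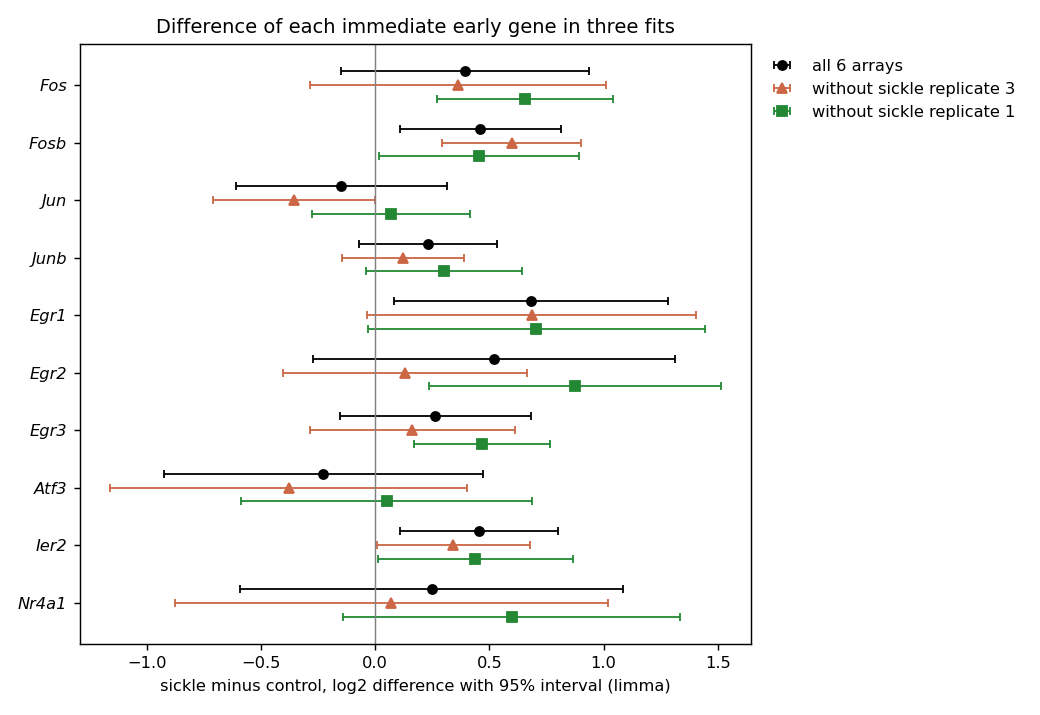
Sickle minus control difference of each member (horizontal axis, log2 with the 95% interval of limma) over all 6 arrays, without sickle replicate 3 and without sickle replicate 1. Fosb, Egr1 and Ier2 stay close to the same place in the 3 fits, while Egr2 moves from 0.13 to 0.87. Sickle replicate 1 was left out after its values in these genes were seen.

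**Figure D3:**
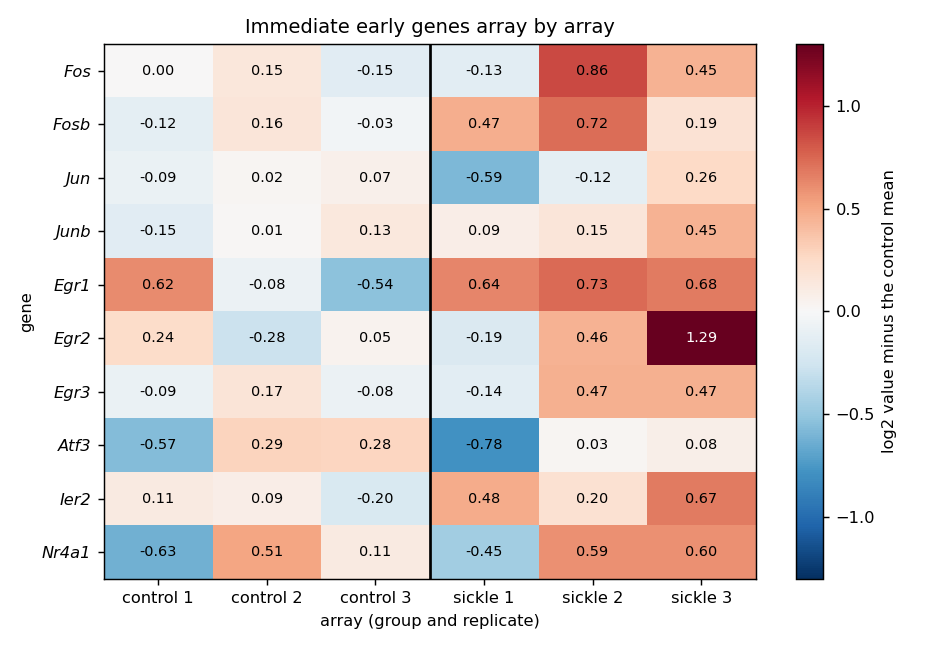
Log2 value minus the control mean (colour and printed number) for each member (rows) in each array (columns). Sickle replicate 3 is above the control mean in all 10 genes and sickle replicate 2 in 9, while sickle replicate 1 is above it in 4.

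The heat map of single arrays shows how the sickle mice differed among themselves. Sickle replicate 3 ran from 0.08 (Atf3) to 1.29 (Egr2) relative to the control mean. It was the highest of the 6 arrays in 6 of 10 members, where 23.8% of all genes had it highest and 28.3% lowest. This was not particular to the members. The same array was highest in 33 of 43 other early response genes and 12 of 20 feedback inhibitors. Among cell type markers it was highest in 10 of 10 for fibroblasts, 10 of 10 for macrophages and 1 of 10 for cardiomyocytes. Sickle replicate 2 ran from -0.12 (Jun) to 0.86 (Fos), and was highest in 3 members, Fos, Fosb and Egr1. Sickle replicate 1 ran from -0.78 (Atf3) to 0.64 (Egr1). The members did not move as a block: in sickle replicate 1, Egr1, Ier2 and Fosb were at 0.64, 0.48 and 0.47 while Atf3, Jun and Nr4a1 were at -0.78, -0.59 and -0.45.

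The spread between mice of the same group was wide for most members. It is given as the percentile of a gene's SD among the 1000 genes nearest to it in mean level, which takes out the dependence of the SD on brightness. In the control mice, Nr4a1 (SD 0.58, percentile 99.9), Egr1 (SD 0.58, percentile 99.5), Atf3 (SD 0.49, percentile 99.3) and Egr2 (SD 0.26, percentile 90.5) were the 4 members above the 90th percentile, and all 10 were above the 50th. In the sickle mice 5 members were above the 90th: Nr4a1 (98.3), Egr2 (97.9), Jun (95), Atf3 (93.9) and Fos (93.6). Egr1 stood at the other end there, at percentile 10.4. The SD was larger in sickle than in control mice for 8 of 10 members, against 62.8% of all genes.

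**Figure D4:**
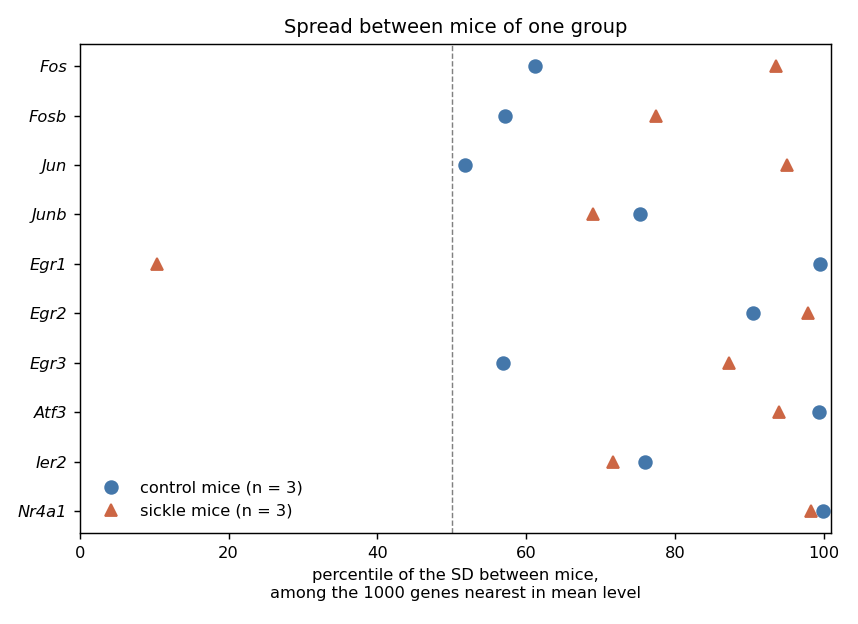
Percentile of the SD between the 3 mice of a group (horizontal axis), among the 1000 genes nearest in mean level, for each member in control and sickle mice. Nr4a1 and Atf3 are above the 90th percentile in both groups, and Egr1 lies at 99.5 in control and 10.4 in sickle.

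Nr4a1 and Atf3 were low in replicate 1 of both groups. In control replicate 1 they were 0.94 and 0.85 below the mean of their group mates on the log2 scale, and in sickle replicate 1 they were 1.05 and 0.83 below. In all, 39 of 21506 genes (0.181%) were over 1.5-fold below their group mates in both of these arrays, and they held 2 of the 10 members. Of the 43 other early response genes measured, 3 were among the 39: Nr4a3, the NR4A relative of Nr4a1, Per1, a clock gene induced by cAMP, and Sik1, a kinase induced by cAMP. Nr4a3 had 5.79, 6.78 and 6.74 in control and 5.51, 6.74 and 6.81 in sickle. Errfi1, a feedback inhibitor of the EGF receptor, was the 1 such feedback gene. Most of the 39 were on none of the lists used here, so the set is not one of early response genes alone. The replicate numbers are not said to pair mice, and this set was picked after its values were seen.

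Relatives of the members that are not on the list gave differences near those of the members or smaller. Fosl2, a Fos relative, differed by 0.12 ± 0.21, Jund, the Jun relative present in resting cells, by 0.23 ± 0.17, Egr4 by -0.03 ± 0.16, Nr4a2 by 0.17 ± 0.15 and Nr4a3 by -0.08 ± 0.40 (SE; limma adjusted p from 0.702 to 0.963). Among 43 measured early response genes outside the members, 27 were higher and 16 lower in sickle, and 0 passed the adjusted threshold. Their median was 0.11 over all arrays and -0.10 without sickle replicate 3, and it was -0.11, -0.03 and 0.43 in sickle replicates 1, 2 and 3. The 3 with the smallest p were Homer1, a scaffold protein whose short form is made on demand (-0.39 ± 0.11), Ppp1r15a, the stress-induced phosphatase subunit GADD34 (0.46 ± 0.15), and Bhlhe40, a clock-linked repressor (0.29 ± 0.10). In each of these the groups did not overlap (limma adjusted p from 0.432 to 0.526), which a choice by the smallest p favours. Of the 43 genes, 6 had all sickle arrays above all controls and 2 had them below, against 1636 and 1798 of all 21506 genes.

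Genes that shut the early response down were 16 higher and 4 lower of 20 measured, with 0 past the threshold and a median of 0.13, against 0.02 without sickle replicate 3. Spred1 and Spred2, inhibitors of the Ras to ERK pathway, differed by 0.36 ± 0.12 and 0.27 ± 0.10, and Zfp36l2, which speeds decay of AU-rich transcripts, by 0.45 ± 0.16. Each of these 3 had all sickle arrays above all controls, with limma adjusted p from 0.484 to 0.527. They were named for the smallest p, which favours that pattern, and they were the 3 of 20 that showed it. Of 16 measured kinases and activators upstream of the members, 13 were higher and 3 lower, again with 0 past the threshold and a median of 0.08. Elk4, an SRF partner, had 0.25 ± 0.12, Rps6ka3, the kinase RSK2, 0.17 ± 0.09 and Mapk8, the kinase JNK1, -0.20 ± 0.10 (adjusted p from 0.596 to 0.621).

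Of 10 measured AP-1 partners, 7 were higher and 3 lower, with a median of 0.05 and 0 past the threshold. Maf and Mafg, leucine zipper factors of the Maf family, had 0.49 ± 0.20 and 0.14 ± 0.10, and Batf2 had 0.13 ± 0.13. Delayed genes that AP-1 or EGR factors are known to activate were 10 higher and 8 lower of 18 measured, with a median of 0.08 and 0 past the threshold. The smallest p among them belonged to Pdgfb, a growth factor for mural cells (0.44 ± 0.10), Ccnd1, cyclin D1 (0.59 ± 0.17), and Tgfb1 (0.41 ± 0.12), with limma adjusted p from 0.328 to 0.437. In all 3 the sickle arrays were above the controls, a pattern that a choice by p favours and that 5 of the 18 showed. Ccl2, a chemokine gene that AP-1 can activate, lay on the other side, at -0.53 ± 0.18 with overlapping groups (chosen after its values were seen).

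**Figure D5:**
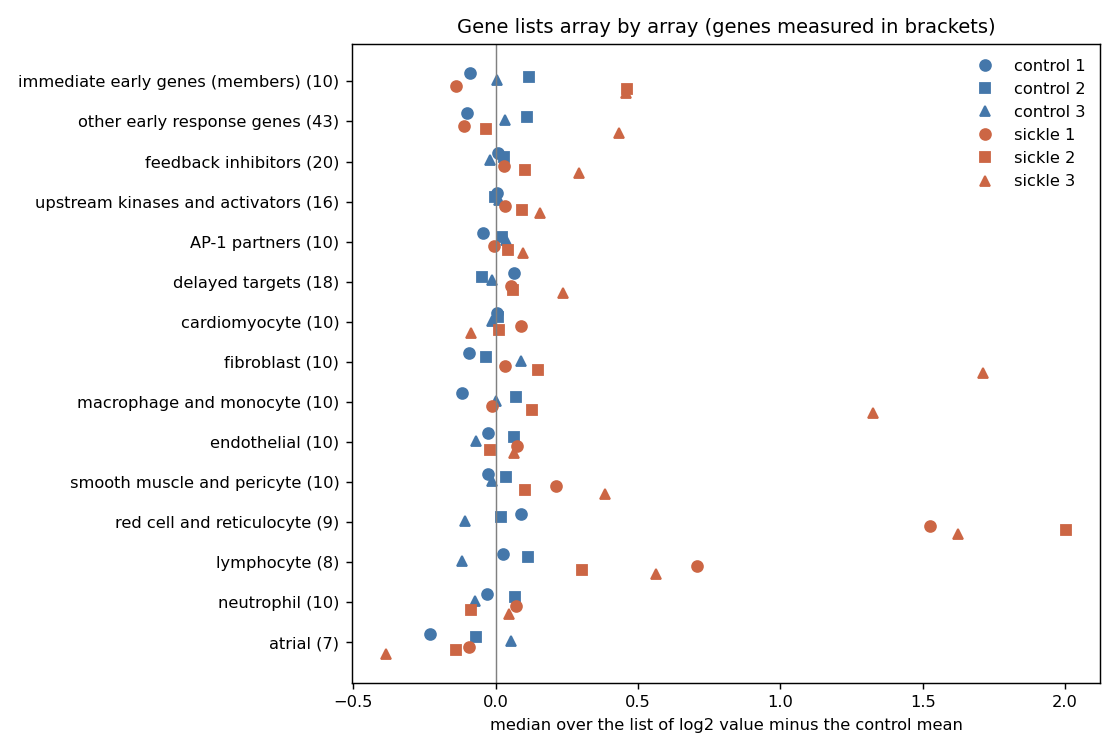
Median over each gene list of the log2 value minus the control mean (horizontal axis), with 1 symbol per array and the number of genes measured in brackets. The immediate early genes are at 0.46 in sickle replicates 2 and 3 and at -0.14 in replicate 1, while fibroblast and macrophage markers are high in sickle replicate 3.

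Markers of other cell types were high in some of the same arrays. Fibroblast markers, 10 of 10 measured and all higher in sickle, had mean levels of 8.66 to 8.88 in control and 8.92 to 10.62 in sickle, and macrophage markers (9 of 10 higher) 7.41 to 7.59 and 7.41 to 8.70. The high end of both was sickle replicate 3, where the fibroblast median was 1.71 and the macrophage median 1.33 above control, against 0.03 and -0.01 in replicate 1 and 0.15 and 0.13 in replicate 2. Of the defining fibroblast markers, Pdgfra had mean levels of 9.02 in control and 9.18 in sickle, Col1a1 8.58 and 9.59, and Tcf21 6.91 and 7.29. Of the macrophage markers, Csf1r had 7.82 and 8.45, Cd68 7.44 and 7.91, and Adgre1 6.67 and 7.42. The highest control medians were 0.09 for fibroblast and 0.07 for macrophage markers. The members' median was 0.46 in both sickle replicate 2 and sickle replicate 3. The part of these cells in the members' values was not tested.

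Red-cell markers were high in all sickle arrays, with medians of 1.53, 2.00 and 1.62 in replicates 1 to 3. They were high in sickle replicate 1 too, where the members' median was -0.14, and a link with the members was not tested. Of 9 measured, 9 were higher and 6 rose past the adjusted threshold, among them Slc4a1, the band 3 anion exchanger (3.31 ± 0.30), but not Klf1, an erythroid transcription factor (0.18 ± 0.17), with mean levels of 6.16 to 6.35 in control and 7.52 to 8.09 in sickle. Without sickle replicate 3, 8 of 9 were higher and 3 passed the threshold (Slc4a1, Trim10 and Bpgm, each with limma adjusted p = 0.0232). Lymphocyte markers, 8 of 8 higher with 1 past the threshold (Cd79a, 1.12 ± 0.15, limma adjusted p = 0.0484), had medians of 0.71, 0.30 and 0.56, and Cd3e of T cells differed by 0.33 ± 0.13. Without sickle replicate 3, Cd79a differed by 1.23 (limma adjusted p = 0.0600) and 0 of the 8 passed. Smooth muscle and pericyte markers (10 of 10 higher, median 0.23), endothelial markers (7 of 10, 0.09), neutrophil markers (7 of 10, 0.10), atrial markers (2 of 7, -0.17) and cardiomyocyte markers (5 of 10, 0.00) had 0 past the threshold. Their defining genes differed by 0.37 (Acta2) and 0.28 (Myh11), 0.17 (Pecam1) and -0.07 (Cdh5), and -0.14 (S100a8) and -0.26 (Ly6g) in the first 3 of these lists.

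The array pattern of the members' mean was -0.07, 0.10 and -0.04 in control replicates 1 to 3 and -0.06, 0.41 and 0.51 in the sickle replicates, relative to the control mean. Of 18379 named genes outside the members, the 5 nearest to it, by root-mean-square difference over the 6 arrays, were Asb17os (0.05), Olfr808 (0.06), Snord37 (0.06), Necap2 (0.06) and Pgm2l1 (0.07). Around Ier2, the member with the smallest p, they were Nxpe2 (0.06), Adam23 (0.07), Tnfrsf13b (0.07), Polr2a (0.08) and Tm4sf1 (0.08). These names describe likeness over 6 arrays only.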

How the data were processed

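Groups and replicate numbers came from the sample titles. The authors deposited log2 values made with RMA, per the submitters' processing notes; no version or setting is stated there. RMA sets all arrays to one distribution, so a change shared by most genes cannot be seen. Of 25293 rows, 22030 had 1 gene symbol in the platform annotation, and the brightest row stood for each of 21506 genes. Dim genes were kept.

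Limma 3.58.1 (R 4.3.3) was fitted over all genes with group as the only term, two-sided, with Benjamini-Hochberg adjustment at 0.05. The procedure was tested on simulated data with independent noise between genes. Detection was required there only for changes larger than that of any member. The simulation therefore does not show whether differences of the members' size would be found. Each p-value sets the group difference against the spread between these mice, which limma moderates over all genes. Named genes were the members, from each other list the genes past the threshold or else the 3 with the smallest p, defining markers, and the 5 genes nearest in array pattern; relatives of the members (Fosl2, Jund, Egr4, Nr4a2, Nr4a3), Per1, Sik1, Errfi1 and Ccl2 were named after their values were seen. Of the listed genes, 16 had no row of their own. Members and lists were chosen with earlier results of these data known. Same-numbered arrays deviated from their group means with correlations of 0.11, -0.05 and 0.05, so the numbers were not taken as pairs. Alternatives were each array left out, a replicate block, a trended robust variance, array weights, a second quantile normalisation, median centring, a dim-gene filter and the mean over rows. Arrays give no read depth, so their number limits precision. Figures were drawn with matplotlib 3.10.9.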

Additional observations from a re-analysis of the deposited data

How the results depend on the processing

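Of 60 differences of single members with 1 array left out, 57 kept their direction, and the adjusted p was 0.237 or higher in all 60. Differences turned in 3 cases: Atf3 (-0.51 to 0.051 over these fits) and Jun (-0.35 to 0.070) without sickle replicate 1, and Nr4a1 (-0.068 to 0.60) without control replicate 1; the cause was not tested. With 1 array left out, 1 to 5 members had an unadjusted p under 0.05, and 3 to 8 had no overlap in either direction. Of the members 0 passed the adjusted threshold, and their median was 0.15 to 0.46. The 5 and the 8 came without sickle replicate 1, an array picked on these genes (9.67% and, with sickle above control, 13.3% of all genes). Without sickle replicate 3 the groups did not overlap in 4 members (26.9% of all genes). Jun there, and Atf3 without control replicate 1, lay below control. These shares over all genes were not counted for the other arrays left out. Genes past the adjusted threshold numbered 4 to 36 over all genes, against 39. In the 7 other settings, all 69 differences kept their direction (adjusted p of at least 0.285), with medians from 0.21 to 0.33 over the members. Only array weights, the second quantile normalisation and median centring could change a member's difference. The other settings returned the same differences by construction, so for direction they were no check. The replicate block left 12 genes past the threshold over all genes and 0 members, and the numbers are shared labels only. A second quantile normalisation and median centring left 2 members without overlap, with Egr1 overlapping, and a filter on dim genes left out Fosb. The number of arrays limits the precision.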
